A study of Mus musculus with 20 samples.

Results

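The 8 genes described here encode enzymes that make reactive oxygen species or nitric oxide in the colon, together with their partner proteins and an arginase. They were Duox2, Duoxa2, Nox1, Noxo1, Noxa1, Nox4, Nos2 and Arg2. They were chosen by name, and the value of each gene in each mouse was the sum of the FPKM (fragments scaled by the length of the transcript and the depth of the library) of its Ensembl transcripts. They make up 8 of 32991 genes and 23 of 96032 Ensembl transcripts in the data. RNA-seq was performed on colon tissue of 20 male C57BL/6 mice, with 1 library per mouse and 5 mice per group. The Control group received distilled water by gavage and no carcinogen. The PZH group received Pien Tze Huang (PZH), a compound preparation of traditional Chinese medicine, at 250 mg/kg/d for 91 days. The AOM/DSS group, named Model in the labels, received 1 injection of the carcinogen azoxymethane (AOM, 12.5 mg/kg). It then received 4 cycles of 2% dextran sulfate sodium (DSS, which injures the colon epithelium) for 5 days and plain water for 2 weeks, with distilled water by gavage. The PZH + AOM/DSS group (Model + PZH) received both. AOM/DSS produces colitis followed by colon tumors, and whole colon tissue holds epithelium, muscle, stroma and immune cells. The age of the mice and whether the tissue contained tumors were not given in the sources used here.

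NADPH oxidases carry electrons across a membrane to oxygen. NOX1 is the main form of the colon epithelium and needs an organizer (NOXO1) and an activator (NOXA1) to produce superoxide. DUOX2 sits on the luminal side of the epithelium, needs the maturation factor DUOXA2 to leave the endoplasmic reticulum, and releases hydrogen peroxide toward the microbiota. NOX4 is largely constitutive and is known from fibroblasts, vessels and kidney. NOS2, the inducible nitric oxide synthase, makes nitric oxide from arginine, and the mitochondrial arginase ARG2 turns the same substrate into ornithine, the precursor of polyamines and proline. Nos2 and Duox2 are known to respond to cytokines and microbial products.

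Duox2 and Duoxa2 are neighbors on chromosome 2 and point away from each other. In GRCm38, Duox2 spans positions 122279247 to 122298449 on the minus strand, and Duoxa2 spans 122298900 to 122302885 on the plus strand, so that their starts are 451 bases apart. Their promoter windows are shown because the genes are neighbors of which 1, Duoxa2, passed the test below. The RefSeq start of Duox2 lies inside the Ensembl span of the gene, 673 bases from the Duoxa2 start. Each window holds 250 bases before and 50 after the RefSeq start (GRCm38.p6), read 5′ to 3′ on the strand of its gene. The Duox2 window is chr2:122298178-122298477, minus strand, and the Duoxa2 window is chr2:122298650-122298949, plus strand. Capitals mark matches to the motifs searched.
Duox2: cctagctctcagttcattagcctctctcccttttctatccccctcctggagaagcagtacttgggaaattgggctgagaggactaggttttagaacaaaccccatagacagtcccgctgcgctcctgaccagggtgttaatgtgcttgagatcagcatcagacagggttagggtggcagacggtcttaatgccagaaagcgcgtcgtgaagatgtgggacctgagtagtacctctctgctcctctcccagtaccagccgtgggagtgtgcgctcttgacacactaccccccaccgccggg
Duoxa2: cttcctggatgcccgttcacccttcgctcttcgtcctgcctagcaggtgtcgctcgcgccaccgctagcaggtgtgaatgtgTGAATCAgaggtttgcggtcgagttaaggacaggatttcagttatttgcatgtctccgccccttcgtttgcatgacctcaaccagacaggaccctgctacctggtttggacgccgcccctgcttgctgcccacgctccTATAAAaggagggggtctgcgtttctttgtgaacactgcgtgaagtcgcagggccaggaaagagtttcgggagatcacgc

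Promoter windows were found in RefSeq for 6 of the 8 genes, and not for Nos2 and Arg2. Motifs were searched on both strands and counted in 32851 mouse promoter windows. The AP-1 motif was written as TGANTCA and was found in 7.81% of the windows. The TATA motif was TATAAA (13.62% of the windows), and the GAS motif, which STAT factors bind, was TTCNNNGAA (8.3%). The motif of the intestinal factor CDX was TTTATG (11.85%). The kappaB motif of NF-kappaB was found in 4.51%. None of the motifs overlapped another in these windows. The Duoxa2 window held an AP-1 match, with its first base 168 bases before the start, and a TATA match 30 bases before the start. The Duox2 and Noxo1 windows held none of the 5 motifs. The Nox1 window (chrX:134111805-134112104, minus strand) held 1 kappaB match and 2 CDX matches. The Noxa1 window (chr2:25095156-25095455, minus strand) held 1 kappaB position, which matched on both strands. The Nox4 window (chr7:87246399-87246698, plus strand) held 1 GAS match. These matches describe the letters of the windows only.

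The 20 libraries held about 15.4 to 19.5 M fragments each, as read from the smallest steps of the FPKM values. This reading is an estimate, since only 27.8% to 44.4% of the low values fell on whole steps. The tissue carried colon epithelium markers in every mouse (summed FPKM of 12 markers from 3373 to 8714), although 1 of them, Epcam, was listed at 0 in all 5 Control mice; an exact 0 in these files can be a failed estimate. The 8 genes described here were above 0 in every mouse. Markers of squamous epithelium, which lines the anal canal and not the colon, summed to 346 FPKM in Control mouse 17 and 296 FPKM in Control mouse 50. The same 8 markers summed to at most 1.64 in the other Control mice, and to 0.325 to 1.05 in the PZH group, 12.8 to 36.6 in the AOM/DSS group and 2.56 to 65.9 in the PZH + AOM/DSS group. PZH + AOM/DSS mouse 35 also stood apart. Over log2(FPKM + 1) of all genes its median correlation was 0.922 with its own group and 0.955 with the AOM/DSS group. Where leaving out Control mice 17 and 50 or PZH + AOM/DSS mouse 35 ended a call named here, the value without them or the genes that still passed are given.

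In the Control group, the NOX1 complex and Duoxa2 were the abundant members by summed FPKM. Nox1 had a mean of 32.1 FPKM, above 93.1% of all genes, followed by Duoxa2 at 28.3, Noxa1 at 17.5 and Noxo1 at 15.1 FPKM. Duox2 (1.74), Arg2 (1.14), Nos2 (0.973) and Nox4 (0.145 FPKM) were low. In the AOM/DSS group, Duoxa2 was the most abundant member at 84.6 FPKM, and Nos2, rank 7 of 8 in the Control group, had rank 3 at 27.4 FPKM. FPKM are per length of transcript, so that genes can be set beside each other, except for Duox2 and Noxo1 (described below). The Duox2 value covered 1 transcript that does not encode protein. Most of the Noxo1 sum also came from transcripts that do not encode protein. Its coding transcript alone had a mean of 1.745 FPKM in the Control group, near the level of Duox2.

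**Figure D1:**
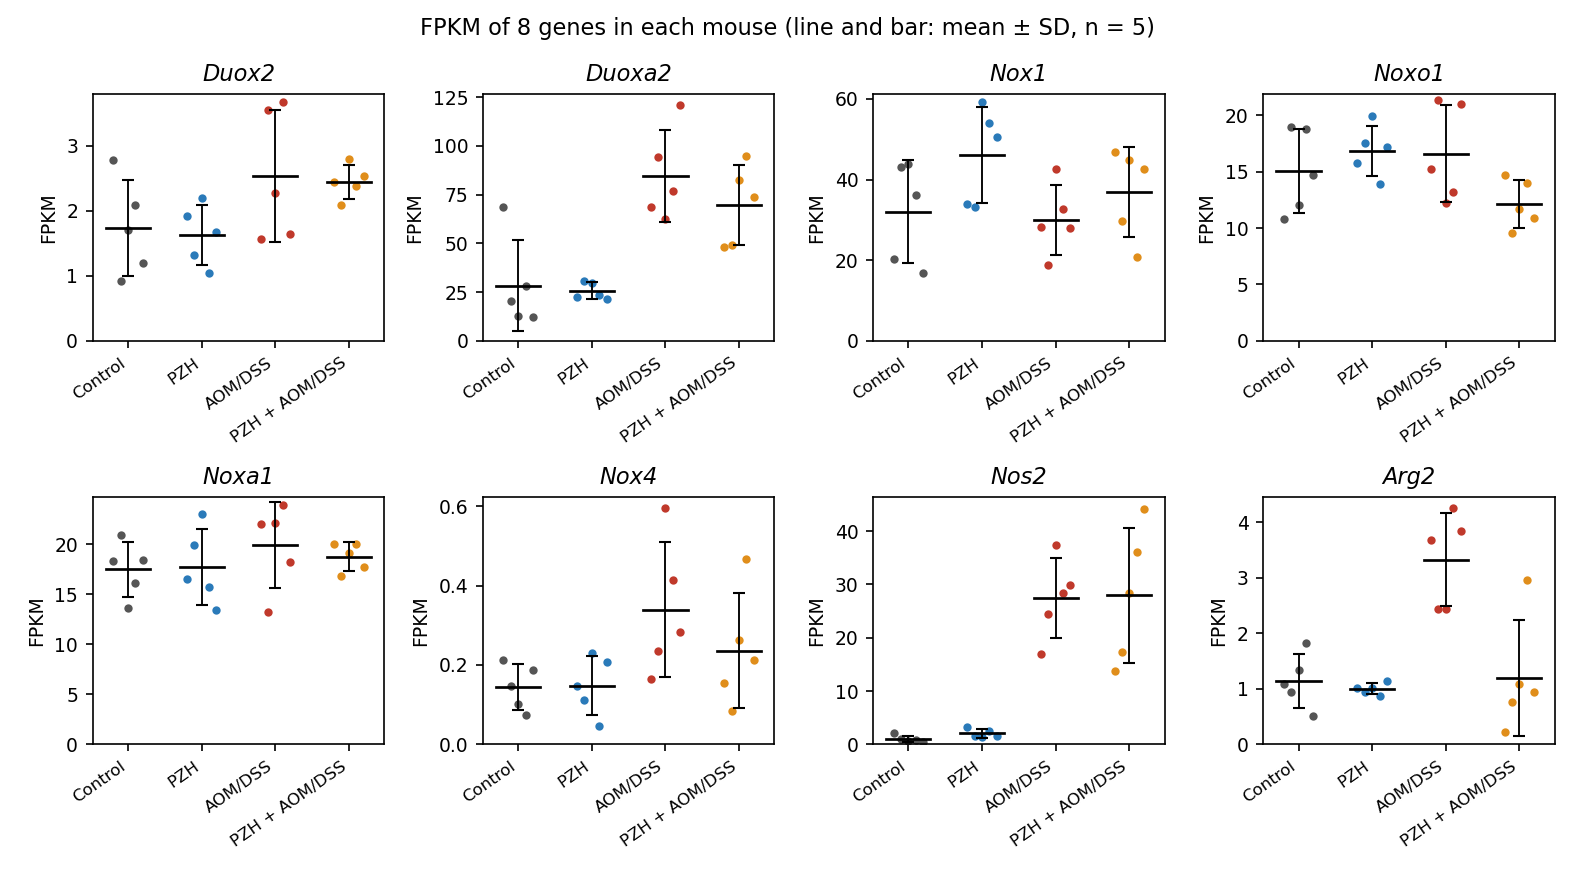
FPKM of each of the 8 genes (vertical axis, linear, from 0) in each mouse (points) of the 4 groups, with the mean (line) and SD (bar) of 5 mice. Nos2 is at 16.96 FPKM or more in every AOM/DSS mouse and at 3.30 or less in every Control and PZH mouse; Arg2 is high in the AOM/DSS group and in 1 PZH + AOM/DSS mouse.

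The first comparison asked which members differed in the AOM/DSS colon. Compared with the Control group, Nos2, Duoxa2 and Arg2 were higher, and the NOX1 complex was not detectably different. The comparison covered 15812 genes with limma, and 3 of the 7 members tested passed an adjusted P of 0.05 (Benjamini-Hochberg over all genes), all of them higher. Of all genes tested, 23.6% passed, 16.4% as higher and 7.23% as lower. Nox4 was below the expression filter of 0.5 FPKM in at least 5 of the 10 mice and was not tested. The median log2 difference of the 7 members was 0.37, against 0.09 over all genes.

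Nos2, the inducible nitric oxide synthase, showed the largest difference among the members. Its values were 2.05, 0.917, 0.586, 0.804 and 0.507 FPKM in the Control mice and 16.96, 24.4, 37.4, 28.3 and 29.98 FPKM in the AOM/DSS mice. All AOM/DSS mice lay above all Control mice, as was the case for 13% of all genes, and the ratio of the means was 28.2. On the log2(FPKM + 1) scale the difference was 3.85 (SE 0.24, adjusted P = 3.78e-06 by limma), a scale on which changes of low genes are understated. Control mouse 17 held the highest Control value. The coding transcript Nos2-201 made up 99.0% of the Nos2 signal.

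Nos2 was also higher with AOM/DSS in mice given PZH. The PZH + AOM/DSS mice had 13.7, 17.4, 28.4, 36.1 and 44.2 FPKM and the PZH mice 3.30, 1.51, 1.44, 2.42 and 1.46 FPKM. This comparison shares no mouse with the comparison of AOM/DSS and Control. The groups did not overlap, as for 5% of all genes in that direction. The log2 difference was 3.18 (SE 0.31, adjusted P = 0.00521 by limma). Between the PZH + AOM/DSS and the AOM/DSS group, Nos2 differed by -0.05 (95% interval -0.75 to 0.65, adjusted P = 0.966 by limma), and the ranges overlapped. In the order of the group means, PZH + AOM/DSS (28.0 FPKM) and AOM/DSS (27.4 FPKM) were not separated by more than their spread.

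In mice without AOM/DSS, Nos2 had a mean of 2.03 ± 0.82 FPKM (SD, n = 5) with PZH and 0.973 ± 0.62 in the Control group. The ratio of the means was 2.08, and 2 PZH mice lay above all Control mice. The log2 difference was 0.63 (SE 0.23). A two-sided exact permutation test of this gene alone gave P = 0.0318, with 0.00794 the smallest P that 5 against 5 mice allow. It did not pass when adjusted over all 15506 genes (adjusted P = 0.533 by limma). No member passed in this comparison (0 of 7), and 0.00645% of all genes, a single one, did. At an unadjusted P under 0.05, 8.84% of all genes passed.

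Whole tissue does not tell apart more cells that express a gene and more RNA in each cell. Markers of neutrophils (10 genes) summed to 122 to 442 FPKM in the Control group, 115 to 228 in the PZH group, 317 to 759 in the AOM/DSS group and 211 to 437 in the PZH + AOM/DSS group. Markers of macrophages and monocytes (12 genes) summed to 345 to 657, 290 to 536, 595 to 763 and 453 to 875 FPKM in the same order. Compared with the Control group, 5 of 7 neutrophil markers tested and 5 of 12 macrophage markers were higher in AOM/DSS, and 7 of 8 smooth muscle markers and 4 of 11 colon epithelium markers were lower, where 16.4% of all genes were higher and 7.23% lower. Without Control mice 17 and 50, 17.8% of all genes passed in either direction. There, 6 of 7 neutrophil and 4 of 12 macrophage markers were higher, and 4 of 8 smooth muscle and 4 of 11 epithelium markers lower. Without Control mouse 17 alone, 20.1% of all genes passed. Then 5 of 7 neutrophil and 3 of 12 macrophage markers were higher, and 7 of 8 smooth muscle and 3 of 11 epithelium markers lower. Control mouse 17, with the highest Nos2 of its group, also had the highest neutrophil marker sum of its group (442 FPKM), of which Ly6g alone made up 368.7 FPKM. Mean Ly6g was lower in AOM/DSS (104 FPKM) than in Control (175.5 FPKM), against the direction of S100a8 (134 and 5.66 FPKM). Without Ly6g the sum was 73.0 FPKM in this mouse, 30.1 to 67.1 in the other Control mice and 176 to 636 in the AOM/DSS mice. It was 45.35 to 73.4 FPKM in the PZH mice. In PZH + AOM/DSS mice 2, 13, 15, 35 and 36 it was 92.0, 65.4, 133.5, 346.3 and 176.5 FPKM. By this sum mouse 13 lay within the Control range. Cd177 was 58.6 FPKM in mouse 13 and 66.2 in Control mouse 48, most of the sum in both. Retnlg was 2.22 FPKM in mouse 13 and at most 0.704 in the Control mice. S100a8 was 2.61 in mouse 13, within the Control range. S100a8, S100a9 and Ltf were 14.1, 15.1 and 10.9 FPKM in Control mouse 17 and 13.85, 12.1 and 11.4 in Control mouse 50. They were at most 0.551 in the other Control mice. The part of neutrophils and macrophages in the Nos2 and Arg2 levels was not tested.

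Arg2, the mitochondrial arginase, was the member in which the AOM/DSS groups with and without PZH were farthest apart. The Control mice had 1.08, 0.939, 1.34, 1.82 and 0.513 FPKM, and the AOM/DSS mice 3.68, 2.43, 2.43, 4.25 and 3.85 FPKM. All AOM/DSS mice lay above all Control mice, as for 13% of all genes. The ratio of means was 2.92 and the log2 difference 1.02 (SE 0.19, adjusted P = 0.00369 by limma). The PZH mice were close together at 1.02, 0.949, 1.01, 0.872 and 1.14 FPKM. In the PZH + AOM/DSS mice 2, 13, 15, 35 and 36, Arg2 was 0.226, 0.753, 1.09, 2.97 and 0.941 FPKM. Of these, 4 of 5 lay below every AOM/DSS mouse, and mouse 35 lay within the AOM/DSS range.

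The mean Arg2 level was 1.20 ± 1.04 FPKM (SD, n = 5) in the PZH + AOM/DSS group and 3.33 ± 0.84 in the AOM/DSS group. The log2 difference was -1.07 (SE 0.28), and an exact permutation test of this gene alone gave P = 0.0238. Adjusted over 15888 genes it did not pass (adjusted P = 0.356 by limma), and none of the 7 members tested did. Only 0.00629% of all genes, a single one, passed in this comparison, while 11.7% had an unadjusted P under 0.05. Without mouse 35 the Arg2 difference was -1.31 (adjusted P = 0.00929 by limma), and 5.17% of all genes then passed. In a model of all 20 mice, where 89 of 15888 genes passed, the adjusted P of Arg2 was 0.0457 by limma. The other 9 analyses that left out 1 mouse each gave adjusted P of 0.341 or more (limma). Between PZH + AOM/DSS and PZH, Arg2 differed by 0.02 (95% interval -0.53 to 0.58).

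The Arg2 values rest on 5.0 to 102.5 estimated fragments per mouse. Its only transcript shares 19.96% of its exon bases with Vti1b, which lies on the opposite strand, and whether the counting used strand was not given in the sources used here. Vti1b was much more abundant, with mean levels of 34.5 FPKM in the PZH + AOM/DSS group and 39.8, 40.3 and 54.7 FPKM with AOM/DSS, with PZH and in the Control group, and passed the test in none of the 5 comparisons. Mouse 35 had the lowest Vti1b level of the 20 mice (8.51 FPKM).

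Set beside each other in 1 mouse, Nos2 and Arg2 separated the 4 groups in different ways. The ratio of Nos2 to Arg2 was 0.437 to 1.90 in the Control group, 1.28 to 3.23 in the PZH group and 4.61 to 15.4 in the AOM/DSS group. In the PZH + AOM/DSS group it was 60.6, 23.1, 26.1, 12.2 and 47.0, of which mouse 35 had 12.2. Leaving out mouse 35, all PZH + AOM/DSS mice were above the highest AOM/DSS ratio. This ratio was formed after the values were seen and was not tested.

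**Figure D2:**
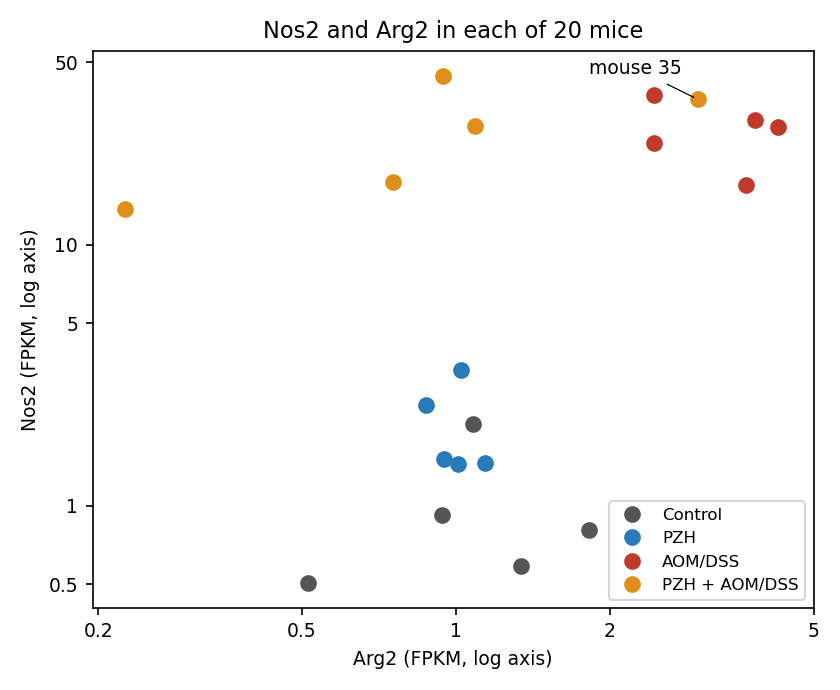
Nos2 (vertical, FPKM, log axis) and Arg2 (horizontal, FPKM, log axis) in each of 20 mice, colored by group. The AOM/DSS mice lie at upper right with mouse 35 of the PZH + AOM/DSS group (Nos2 36.1, Arg2 2.97 FPKM); the other 4 PZH + AOM/DSS mice have Nos2 of 13.7 to 44.2 FPKM and Arg2 of 0.226 to 1.09 FPKM.

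Duoxa2, the maturation factor of DUOX2, was higher in both AOM/DSS comparisons. The Control mice had 68.7, 20.2, 12.7, 27.9 and 12.2 FPKM, and the AOM/DSS mice 68.7, 94.1, 62.7, 76.7 and 121 FPKM. The groups overlapped through Control mouse 17 alone. The log2 difference was 1.80 (SE 0.41, adjusted P = 0.01 by limma), and without Control mouse 17 it was 2.19 (adjusted P = 0.000618). The PZH mice had 22.4, 30.8, 29.8, 23.7 and 21.4 FPKM and the PZH + AOM/DSS mice 48.04, 48.9, 82.2, 94.6 and 73.9 FPKM. Here the groups did not overlap, with a difference of 1.37 (SE 0.20, adjusted P = 0.0156 by limma).

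Both Nos2 and Duoxa2 passed in the comparison of PZH + AOM/DSS and PZH, 2 of 7 members, where 2.42% of all genes passed, 1.74% as higher and 0.678% as lower. All PZH + AOM/DSS mice lay above all PZH mice for 5% of all genes. Between PZH + AOM/DSS and AOM/DSS the Duoxa2 difference was -0.29 (95% interval -0.81 to 0.23, adjusted P = 0.643 by limma). Against the Control group, PZH + AOM/DSS was higher for Nos2 (3.80, adjusted P = 0.00082 by limma), 1 of 7 members, where 2.42% of all genes passed, 1.55% as higher. The groups did not overlap for Nos2, nor for 4.18% of all genes in that direction. The Duoxa2 difference there was 1.51 (adjusted P = 0.0812 by limma). Without Control mouse 17, where 1.08% of all genes passed, it was 1.90 and passed (adjusted P = 0.0269 by limma). Duoxa2 shares 42.84% of its exon bases with Duoxa1 on the opposite strand, but Duoxa1 had a mean of 0.210 to 0.626 FPKM in the 4 groups.

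Duox2, the oxidase itself, could be followed through 1 transcript only. This was Duox2-202, a transcript of 1451 bases and 5 exons with a retained intron. The coding transcripts Duox2-201 and Duox2-203 were absent from the Ensembl transcripts of the data. Its values were 2.78, 0.914, 1.70, 2.09 and 1.19 FPKM in the Control mice and 1.57, 3.55, 2.27, 3.67 and 1.64 FPKM in the AOM/DSS mice. The groups overlapped, and the difference of 0.37 (SE 0.24) did not pass (adjusted P = 0.301 by limma). The PZH mice had 1.93, 1.33, 2.19, 1.04 and 1.67 FPKM, and the PZH + AOM/DSS mice 2.45, 2.09, 2.80, 2.38 and 2.53 FPKM, of which 4 of 5 lay above all PZH mice. That difference was 0.40 (SE 0.14), with P = 0.0159 by the exact permutation test of this gene and an adjusted P of 0.14 by limma.

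The ratio of Duoxa2 to Duox2 had medians of 13.3 in the Control group, 13.6 in the PZH group, 27.7 in the AOM/DSS group and 29.2 in the PZH + AOM/DSS group. Over the 20 mice, log2(FPKM + 1) of the neighbors correlated with r = 0.651, and with r = 0.415 after the group means were subtracted. Duoxa2 followed Nos2 more closely, with r = 0.877 over the 20 mice and r = 0.539 within groups. These are descriptions over mice that share groups, and a small number of fragments (24.2 to 90.0 per mouse, estimated) limits the Duox2 values. On the Duox2 side, the ratio and the correlation rest on the retained intron transcript alone and not on coding RNA.

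Nox1, the superoxide-producing oxidase of the colon epithelium, did not pass in any comparison. The Control mice 17, 37, 41, 48 and 50 had 20.4, 43.2, 43.8, 36.2 and 16.8 FPKM. The low values were those of mice 17 and 50, which carried the squamous epithelium markers. The AOM/DSS mice had 28.3, 18.8, 42.7, 32.6 and 27.9 FPKM, a difference from the Control group of -0.04 (SE 0.30, adjusted P = 0.947 by limma). Without the 2 Control mice it was -0.48 (SE 0.23, adjusted P = 0.186), since the other 3 Control mice had a mean of 41.1 ± 4.20 FPKM (SD, n = 3).

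The PZH mice had 33.9, 33.1, 59.2, 54.0 and 50.4 FPKM of Nox1, and 3 of 5 lay above all Control mice. The difference was 0.57 (SE 0.29, adjusted P = 0.595 by limma), and without Control mice 17 and 50 it was 0.13 (adjusted P = 0.911). In the PZH + AOM/DSS group, Nox1 was 46.9, 29.7, 44.8, 20.8 and 42.6 FPKM. The lowest of these was again mouse 35, which had the highest squamous marker sum of its group (65.9 FPKM). The difference from AOM/DSS was 0.28 (95% interval -0.29 to 0.84, adjusted P = 0.697 by limma). The part of squamous epithelium in the Nox1 values was not tested. Nox1 shares 12.07% of its exon bases with Cstf2 on the opposite strand, which was higher in AOM/DSS than in Control (log2 difference 0.53, adjusted P = 0.0124 by limma) but did not pass without Control mice 17 and 50 (0.48, adjusted P = 0.0547).

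**Figure D3:**
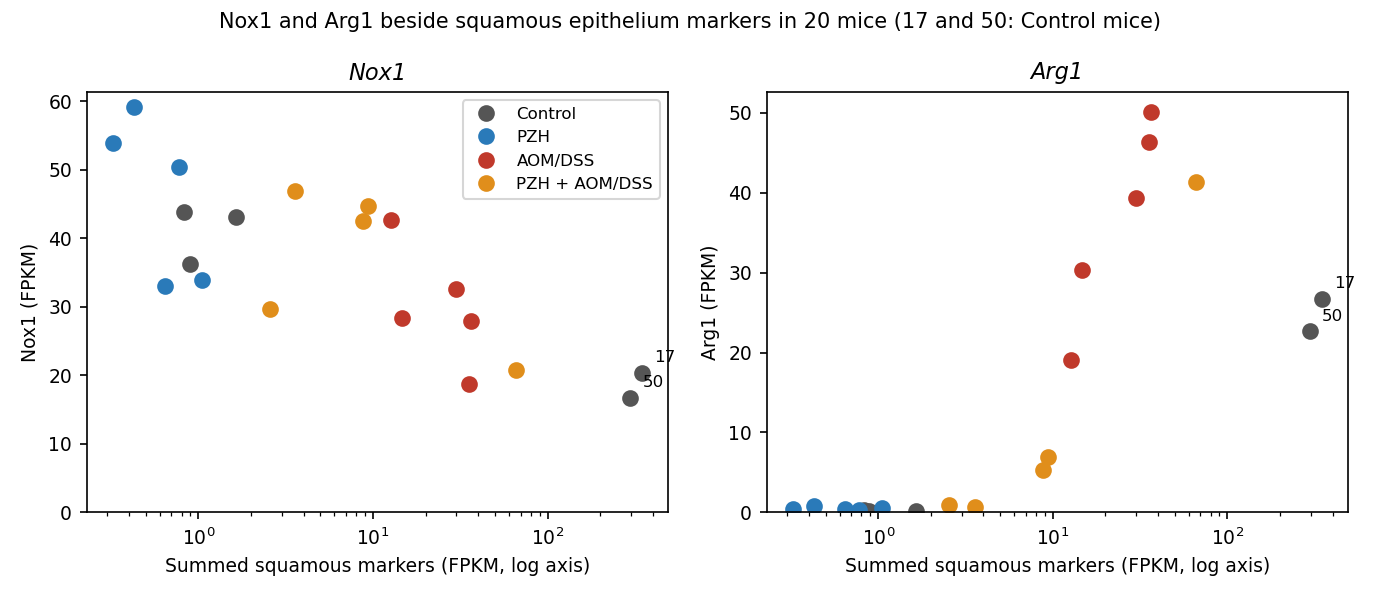
Nox1 (left) and Arg1 (right), in FPKM on linear axes from 0, against the summed FPKM of 8 squamous epithelium markers (log axis) in 20 mice, colored by group. Control mice 17 and 50 lie at the far right, with Nox1 of 20.4 and 16.8 FPKM and Arg1 of 26.7 and 22.7 FPKM, while the other 3 Control mice have Arg1 below 0.3 FPKM.

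The partner proteins of NOX1 were also without a called difference. Noxa1, the activator, differed little between group means, with 17.5 ± 2.73 FPKM (SD, n = 5) in the Control group and 17.7 ± 3.77 with PZH. The AOM/DSS group had 19.9 ± 4.26 FPKM, and 18.7 ± 1.44 when PZH was added. Its differences lay between -0.06 and 0.16 in the 5 comparisons, with 95% intervals within -0.40 and 0.54. Noxo1, the organizer, had 10.8, 18.9, 12.1, 18.8 and 14.7 FPKM in the Control mice and 15.7, 17.5, 19.9, 13.9 and 17.2 FPKM in the PZH mice. It had 15.3, 21.4, 12.2, 13.2 and 21.01 FPKM in the AOM/DSS mice and 14.7, 9.54, 11.7, 13.98 and 10.9 FPKM in the PZH + AOM/DSS mice. The PZH + AOM/DSS group was lowest, 3 of its 5 mice lying below all AOM/DSS mice.

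The Noxo1 difference between PZH + AOM/DSS and AOM/DSS was -0.40 (SE 0.18, adjusted P = 0.429 by limma), and between PZH + AOM/DSS and PZH it was -0.45 (SE 0.14, adjusted P = 0.108). Neither passed. Most of the Noxo1 sum did not come from the coding transcript. Noxo1-201 held 12.4% of it in the Control group and 9.34% in the PZH group. With AOM/DSS it held 19.6%, and 13.1% when PZH was added. The short processed transcript Noxo1-207 and the retained intron transcript Noxo1-203 held 42.3% and 28.8% over all mice. In addition, 70.43% of the exon bases of Noxo1 also belong to Tbl3, a ribosome assembly gene on the opposite strand, with 8.94 to 11.5 FPKM in the 4 groups, so that reads of the 2 genes may not be separable here. The coding transcript alone had 3.78, 6.38, 0.122, 1.42 and 6.62 FPKM in the AOM/DSS mice and 2.06, 1.26, 0.0409, 5.33 and 0.0135 FPKM in the PZH + AOM/DSS mice. It ranged far more widely than in the Control mice (0.870 to 2.22 FPKM) and the PZH mice (1.33 to 1.80 FPKM).

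Nox4 was at the lower limit of what these libraries can show. Its values were 0.212, 0.146, 0.103, 0.0747 and 0.188 FPKM in the Control mice and 0.164, 0.236, 0.596, 0.415 and 0.284 FPKM in the AOM/DSS mice, where 4 of 5 lay above all Control mice. The ratio of the means was 2.35, and the exact permutation test of this gene gave P = 0.0318. Without the expression filter the difference was 0.22 (SE 0.08) and did not pass over 31007 genes (adjusted P = 0.126 by limma). The coding transcript Nox4-201 alone had 0.149, 0.221, 0.191, 0.415 and 0.212 FPKM in the AOM/DSS mice, a ratio of means of 1.64. The remainder came from transcripts marked for decay or with a retained intron, which were at 0 in all Control and PZH mice. The coding transcript was listed at 0 in PZH + AOM/DSS mouse 35. Summed over transcripts, the PZH mice had 0.0469 to 0.229 FPKM and the PZH + AOM/DSS mice 0.0834 to 0.466 FPKM. The values rest on 3.0 to 43.1 estimated fragments per mouse.

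**Figure D4:**
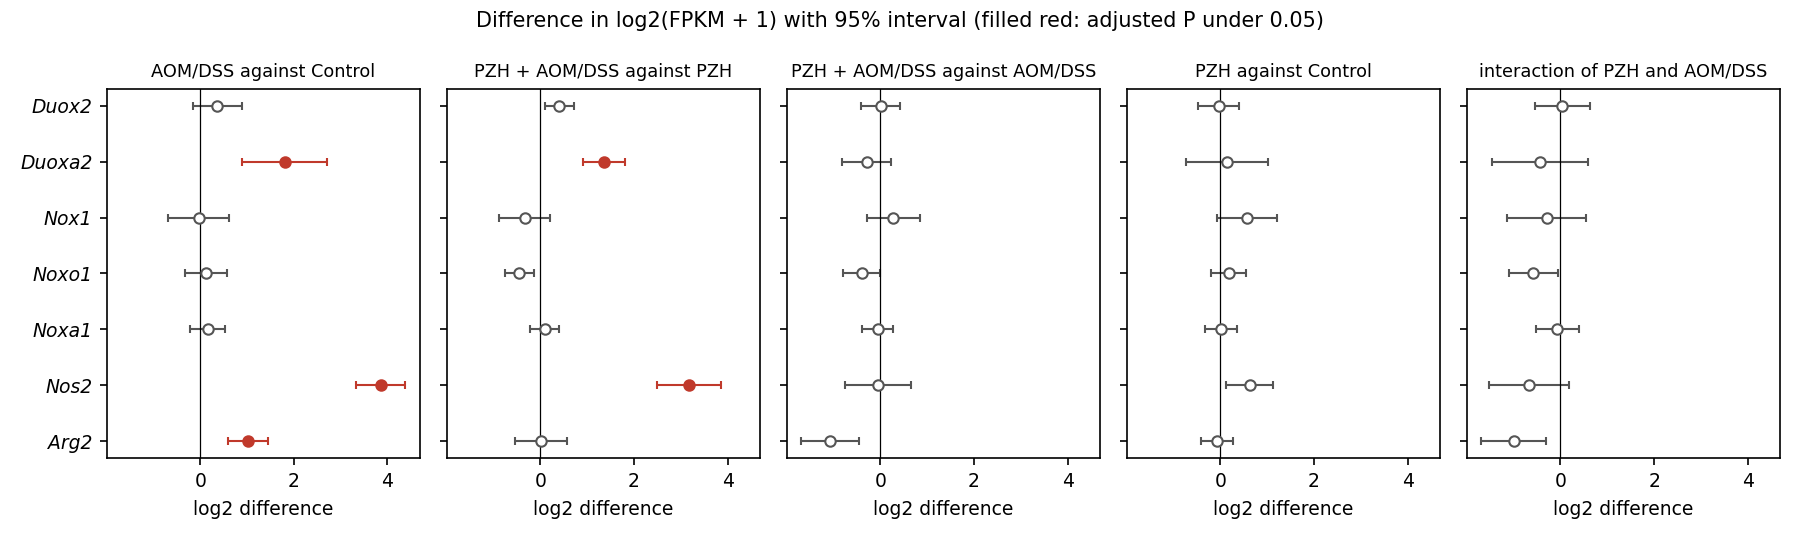
Difference in log2(FPKM + 1) with its 95% interval (limma) for the 7 members tested in 4 comparisons and the interaction; filled red points passed an adjusted P of 0.05. Nos2 and Duoxa2 are red in both comparisons of AOM/DSS with a group without it (3.85 and 1.80; 3.18 and 1.37), Arg2 only in the mice without PZH (1.02), and no point is red in the other 3 panels.

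Whether the AOM/DSS difference depended on PZH was tested as an interaction over 16936 genes in all 20 mice. None of the 7 members passed, and 0.0118% of all genes did, while 10.3% had an unadjusted P under 0.05. Arg2 had the largest interaction, -0.9999 (SE 0.33, adjusted P = 0.364 by limma). Without PZH + AOM/DSS mouse 35 it was -1.24 and passed (adjusted P = 0.0104), as did 2.83% of all genes. The interaction was -0.58 (SE 0.25, adjusted P = 0.45) for Noxo1 and -0.68 (SE 0.41, adjusted P = 0.589) for Nos2. With all mice included, the Arg2 difference of AOM/DSS was thus not shown to differ between mice with and without PZH.

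Other subunits of the NADPH oxidase family were examined as a list of 10 genes. With all mice included, subunits of the phagocyte oxidase were higher in AOM/DSS than in Control. The median log2 difference of the 7 genes tested was 1.05, against 0.09 over all genes. Where 16.4% of all genes were higher and 7.23% lower, 5 of these 7 passed as higher and none as lower. They were Cybb (the catalytic subunit NOX2), Cyba (its partner p22phox, which NOX1 and NOX4 use as well), the cytosolic subunits Ncf1 and Ncf4, and the GTPase Rac2. Cybb had means of 3.90 ± 1.301 (SD, n = 5) in Control and 9.09 ± 2.08 FPKM in AOM/DSS (1.05, SE 0.20, adjusted P = 0.00407 by limma). Cyba had 88.9 ± 18.3 and 203 ± 46.1 FPKM (1.18, adjusted P = 0.000963). Without Control mice 17 and 50, Cybb and Cyba were the genes of the list that passed (2 of 7, where 17.8% of all genes passed).

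In PZH + AOM/DSS against PZH, 0 of the 7 genes passed, with a median of 0.59. In PZH + AOM/DSS against AOM/DSS none passed either, with a median of -0.30. Cyba had 93.0, 100, 97.7 and 84.6 FPKM in PZH + AOM/DSS mice 2, 13, 15 and 36 and 230.3 in mouse 35, against 156 to 268 in AOM/DSS. Without mouse 35, where 5.17% of all genes passed, it was lower (-1.08, adjusted P = 0.0083 by limma). Duox1 and Duoxa1, the other dual oxidase pair, had group means of at most 0.123 and 0.626 FPKM and were not tested. Of the peroxidases that use hydrogen peroxide, Lpo (lactoperoxidase) was higher in AOM/DSS, with 2.49 ± 1.47 in Control and 10.6 ± 4.64 FPKM (1.72, SE 0.34, adjusted P = 0.00457). Mpo and Epx were below the filter.

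Genes of nitric oxide synthesis and arginine supply formed a list of 16. Of these, 6 passed as higher and none as lower in AOM/DSS against Control, where 16.4% of all genes were higher and 7.23% lower, with a median of 0.17. They were the endothelial synthase Nos3, the arginine transporters Slc7a1 and Slc7a2, Ddah1 and Ddah2, which break down the NOS inhibitor dimethylarginine, and the cytosolic arginase Arg1. Nos3 differed by 0.41 (adjusted P = 0.0319 by limma), Slc7a2 by 0.54 (adjusted P = 0.00643) and Ddah2 by 1.25 (adjusted P = 0.000376). Nos1, the neuronal synthase, had 1.66 and 0.912 FPKM (-0.44, adjusted P = 0.0731), and Ass1, which regenerates arginine, 15.2 and 20.1 FPKM (0.41, adjusted P = 0.263).

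Arg1 showed the widest range. It was 26.7 and 22.7 FPKM in Control mice 17 and 50, 0.120 to 0.289 in the other 3 Control mice and 19.1 to 50.1 in the AOM/DSS mice. The difference was 3.14 (SE 0.96, adjusted P = 0.0368 by limma), and without these 2 mice it was 4.90 (adjusted P = 5.31e-05). Arg1 was 0.317 to 0.830 FPKM in the PZH group. In the PZH + AOM/DSS mice 2, 13, 15 and 36 it was 0.738, 0.887, 6.99 and 5.33 FPKM, and in mouse 35 it was 41.4 FPKM. The difference between PZH + AOM/DSS and AOM/DSS was -2.62 (SE 0.76, adjusted P = 0.356) with all mice and -3.33 (adjusted P = 0.00833) without mouse 35. Over the 20 mice, high Arg1 was seen in mice with high squamous markers, as the plot of Arg1 against these markers shows, but the sum was not of 1 composition. Krt13 and Krt14 made up 53.8% and 58.1% of it in Control mice 17 and 50 and 80.03% to 94.66% in the AOM/DSS mice. Krt5, a basal keratin, was 33.9 and 20.9 FPKM in these 2 Control mice, at most 0.525 in the AOM/DSS mice and 3.21 in mouse 35, and Sprr3 was at 0 in all AOM/DSS mice. The part of squamous epithelium in the Arg1 values was not tested.

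Without Control mice 17 and 50, where 17.8% of all genes passed, 3 genes of the nitric oxide and arginine list passed as higher (Slc7a2, Ddah2 and Arg1) and 1 as lower (Nos1, -0.64, adjusted P = 0.0102). In PZH + AOM/DSS against AOM/DSS, 0 of 16 passed, with a median of -0.10. Without mouse 35, where 5.17% of all genes passed, Arg1 and Ddah2 passed as lower. Ddah2 had 6.03, 7.36, 6.07 and 5.54 FPKM in the PZH + AOM/DSS mice 2, 13, 15 and 36, 19.8 in mouse 35 and 15.9 to 23.3 in the AOM/DSS mice.

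Downstream of arginase, 3 of 11 polyamine and ornithine genes tested passed in AOM/DSS against Control, near the share of all genes (23.6%). Smox (spermine oxidase, which releases hydrogen peroxide) was higher, with 9.81 ± 1.21 and 23.9 ± 4.67 FPKM (1.19, adjusted P = 0.000283). Sat1, which acetylates polyamines, was higher by 0.34 (adjusted P = 0.0376), and Oat, the mitochondrial ornithine aminotransferase, was lower by 0.67 on the log2 scale (log2 difference -0.67, adjusted P = 0.00166). Odc1, the first enzyme of polyamine synthesis, had 58.3 ± 17.6 and 73.8 ± 12.8 FPKM and did not pass (0.37, adjusted P = 0.224). In PZH + AOM/DSS against PZH, 1 of 10 genes tested passed as higher (Amd1) and 1 as lower (Oat), where 2.42% of all genes passed. Without mouse 35, where 1.66% of all genes passed, Amd1 still passed as higher. Oat passed with all mice (-0.50, adjusted P = 0.044) but not without mouse 35 (-0.47, adjusted P = 0.0712).

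Of 16 enzymes tested that remove superoxide and peroxide, 2 passed as higher and 2 as lower in AOM/DSS against Control and 12 did not pass, a share near that of all genes (23.6% called). Sod3, the extracellular superoxide dismutase, was higher (7.998 ± 1.45 and 19.2 ± 2.27 FPKM, log2 difference 1.18, adjusted P = 0.000193), as was Prdx1 (0.45, adjusted P = 0.0489), which did not pass without Control mice 17 and 50 (adjusted P = 0.0723). Prdx6 was lower (1182 ± 259 and 449 ± 93.4 FPKM, -1.39, adjusted P = 0.000544), as was the cytosolic Sod1 (-0.48, adjusted P = 0.0105). In PZH + AOM/DSS against PZH, 2 of 16 passed as higher (Gpx3 and Sod3) and 0 as lower, where 2.42% of all genes passed. Without mouse 35, where 1.66% of all genes passed, Gpx3 still passed as higher. Sod3 passed with all mice (0.87, adjusted P = 0.0402) but not without mouse 35 (0.77, adjusted P = 0.0629).

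Of a list of 18 cytokines and cytokine receptors, 10 genes could be tested in AOM/DSS against Control. Of these, 2 passed as higher and 1 as lower, a share near that of all genes (23.6% called). Il1b (2.71 and 52.8 FPKM, log2 difference 3.97, adjusted P = 6.64e-05) and Tnf (1.63 and 8.55 FPKM, 1.91, adjusted P = 0.000588) were higher, and the receptor subunit Il17rc was lower (45.8 and 24.6 FPKM, -0.86, adjusted P = 0.00408). Il1b was also higher in PZH + AOM/DSS against PZH (3.11, adjusted P = 0.0156), as 1 of 10 genes tested, where 2.42% of all genes passed. In PZH + AOM/DSS against AOM/DSS none of 12 passed. Without mouse 35, where 5.17% of all genes passed, Tnf passed as lower (-1.13, adjusted P = 0.039) and Il17rc as higher (0.69, adjusted P = 0.0344).

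**Figure D5:**
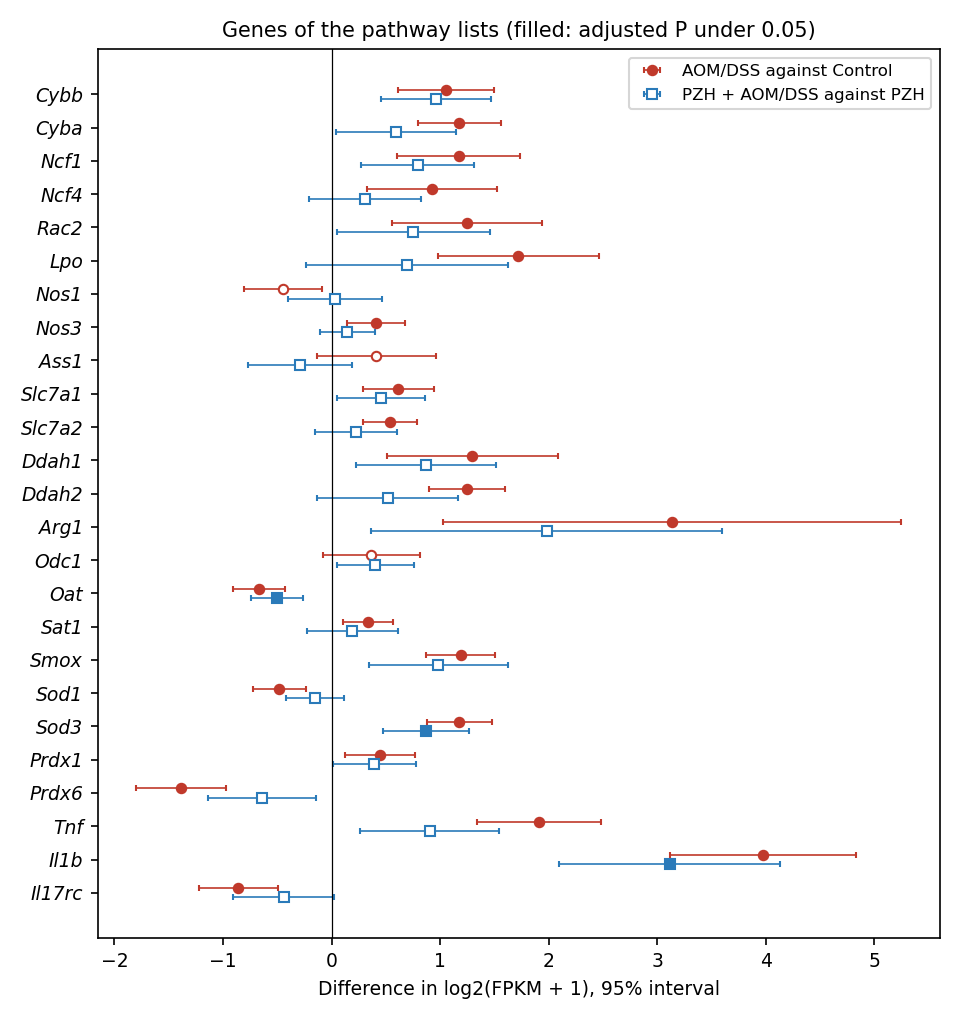
Difference in log2(FPKM + 1) with its 95% interval (limma) of named pathway genes in AOM/DSS against Control (red circles) and PZH + AOM/DSS against PZH (blue squares), which share no mouse; filled symbols passed an adjusted P of 0.05. Il1b (3.97 and 3.11), Sod3 (1.18 and 0.87) and Oat (-0.67 and -0.50) are filled in both, with all mice included; Sod3 and Oat do not pass against PZH without mouse 35. Arg1 has the widest interval.

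Among 14133 genes with a mean of at least 1 FPKM, those whose log2(FPKM + 1) was most like that of a member over the 20 mice were listed for 4 members. The 5 nearest Nos2 were Mcpt1 (r = 0.94), Mfsd2a (0.939), Khdc1a (0.934), Osmr (0.932) and Mcpt2 (0.929). Mcpt1 and Mcpt2 encode proteases of mucosal mast cells, and Osmr is the oncostatin M receptor. After the group means were subtracted these correlations were between -0.204 and 0.497, so that they rest largely on the difference between groups. Mcpt1 had means of 0.836, 1.61, 77.0 and 63.1 FPKM, in the order Control, PZH, Model and Model + PZH.

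The genes nearest Nox1 were Gatm (r = 0.877), Kmt5a (0.874), the nuclear noncoding RNA Malat1 (0.861), Cyp4f14 (0.85) and Kdelr2 (0.848). Within groups they still correlated with Nox1 at 0.815 to 0.869. Gatm, which uses arginine to make the precursor of creatine, had 8.78, 13.9, 6.91 and 9.35 FPKM, highest in the PZH group and lowest in the AOM/DSS group, as for Nox1. For Duox2 the nearest were Abi1 (0.811), Zc3hav1 (0.801), Pogz (0.793), Strada (0.787) and Gm26642 (0.786). For Nox4 they were Ltbp2 (0.876), Angpt4 (0.824), Hcar2 (0.819), Gkn3 (0.818) and the cell cycle inhibitor gene Cdkn2a (0.813). All these values share libraries and depth and carry no test.

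The members did not move as 1 group. The summed values of Nox1 and its organizer Noxo1 were uncorrelated over the 20 mice (r = -0.001), as were Nox1 and its activator Noxa1 (r = 0.058). The coding transcript made up only 14.3% of the Noxo1 sum, and 70.43% of the Noxo1 exon bases also belong to Tbl3. The correlation of Nox1 with Noxo1 may therefore not describe the coding RNA of the organizer. Nos2 and Arg2 correlated with r = 0.494 over all mice and r = 0.361 within groups, and Nox4 and Nos2 with r = 0.615 and r = 0.517.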

How the data were processed

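Colon RNA-seq of 20 mice (5 per group, 1 library each) was used. According to the study's methods, ribosomal RNA was removed, reads passed FastQC and NGSQC, and HISAT2 and StringTie aligned them to mm10 and assembled and quantified transcripts. The deposited values are FPKM per transcript, computed by the authors with StringTie per mouse; that the unit is FPKM was taken from the files and the study's methods. Each file held 118434 transcripts. The 22252 transcripts without an Ensembl name (12.1% to 14.8% of the FPKM) were left out, as were 150 that GENCODE M21 did not hold, and the remaining 96032 were summed into 32991 genes. Reads assigned to left-out transcripts are missing from the sums.

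Genes that reached 0.5 FPKM in 5 or more of the 10 mice compared were tested on log2(FPKM + 1) with limma 3.58.1 (R 4.3.3, lmFit and eBayes with trend), with Benjamini-Hochberg adjustment over all genes and a threshold of 0.05. The interaction was fitted over all 20 mice with the same filter. Any adjusted P in the text is from limma. A single gene was also compared with the two-sided exact permutation test of the difference in mean log2(FPKM + 1). The study tested transcripts with a count model; counts were not used here. The script was tested on simulated data.

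FPKM hold no counts. The depth of 15.4 to 19.5 M fragments was read from the spacing of low values, of which only 27.8% to 44.4% fell on whole steps, so that fragments per gene are estimates and no count test was made. Mice were grouped by their labels. Whether mice of a group shared a cage or batch was not given in the sources used here. The members and gene lists were chosen with earlier results of these data known. All 8 members are named; from each pathway list, up to 5 called genes with the largest difference between AOM/DSS and Control are named, with Duox1, Duoxa1, Cybb, Cyba, Nos1, Nos3, Arg1, Odc1 and Ass1, and the 5 genes most like Duox2, Nox1, Nos2 and Nox4. Genes on the opposite strand of a member, list genes called in another comparison or without a mouse, and single markers that carry a marker sum, were named after their values were seen. A gene of a pathway list is not reported here, and its list was counted without it. Promoter windows are from RefSeq (GRCm38.p6). Alternatives were 2 other scalings, no filter, a pseudocount of 0.1, robust variances without trend, 1 transcript per gene, a model of all 20 mice and leaving out each mouse. Added after seeing the data were coding transcripts only, leaving out Control mice 17 and 50 together, and list counts without these mice or mouse 35.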

Additional observations from a re-analysis of the deposited data

Results flagged for a closer look

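In 2 of 32 combinations of a member and a group, 1 mouse lay farther from the other 4 than Dixon's 95% criterion allows (0.71 of the range); chance gives about 1 in 20, or 1.6 of 32. Both were Control mouse 17. Its Duoxa2 level was 68.7 FPKM, against 12.2 to 27.9 in the other Control mice. Its Nos2 level was 2.05 FPKM, against 0.507 to 0.917. The same mouse had the highest Duox2 of its group (2.78 FPKM), the highest neutrophil marker sum (442 FPKM, of which 368.7 FPKM was Ly6g) and the highest squamous epithelium marker sum (346 FPKM). Their part in these levels was not tested.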

How the results depend on the processing

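No paired analysis was possible because the mouse numbers of the 4 groups are all different and pair no mice. The 6 called differences of members kept their direction and their call under all 112 alternatives run for them. Of 841 values of members under an alternative, 786 kept direction and side of the threshold, 50 turned direction, 5 newly passed and 0 no longer passed; no value that turned was above 0.3 in size on the log2 scale at first.

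In a model of all 20 mice, 1 member passed between PZH + AOM/DSS and AOM/DSS (Arg2), where 89 of 15888 genes passed. In the same model 2 passed between PZH + AOM/DSS and Control (Nos2 and Duoxa2), where 1503 of 15616 genes passed. Leaving out 1 mouse gave 0 to 1 in the first (1 without PZH + AOM/DSS mouse 35, where 5.17% of all genes passed). It gave 1 to 2 in the second (2 without Control mouse 17, where 1.08% of all genes passed). For the interaction it gave 0 to 1 (1 without mouse 35, where 2.83% of all genes passed). The cause of these changes was not tested.

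Direction turned for small differences. Against Control in AOM/DSS, Nox1 became 0.027 after rescaling to the same sum (TPM) and -0.24 to 0.12 without 1 mouse, and Noxo1 became -0.050 with 1 transcript per gene and -0.0077 without Control mice 17 and 50. Between PZH and Control, Noxa1 became -0.0081 with median-of-ratios scaling, Duox2 became 0.013 (TPM) and 0.045 (without both mice), and Noxo1 became -0.089 with coding transcripts only. Arg2 between PZH + AOM/DSS and PZH became -0.010 (median-of-ratios), -0.0069 (TPM) and -0.12 (pseudocount 0.1). Without Control mice 17 and 50, Nox1 between PZH + AOM/DSS and Control became -0.20, and the interaction became -0.039 for Duox2 and 0.15 for Nox1. Without 1 mouse each, PZH + AOM/DSS against AOM/DSS ranged from -0.10 to 0.12 for Duox2, -0.19 to 0.012 for Noxa1 and -0.24 to 0.16 for Nos2. PZH against Control ranged from -0.15 to 0.10 for Duox2, -0.072 to 0.53 for Duoxa2, -0.087 to 0.10 for Noxa1 and -0.19 to 0.039 for Arg2. Arg2 ranged from -0.22 to 0.21 against PZH and from -0.29 to 0.14 against Control in PZH + AOM/DSS. The interaction ranged from -0.089 to 0.16 for Duox2 and -0.20 to 0.029 for Noxa1. The cause was not tested.

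The number of all genes called moved more than that of the members. Against PZH, PZH + AOM/DSS had 378 called genes, 90 without the filter, 155 with 1 transcript per gene, 242 with coding transcripts, 1002 in the model of 20 mice and 54 (without PZH mouse 27) to 423 without 1 mouse. Against Control it had 378, then 98, 177, 236 and 1503, 29 without Control mice 17 and 50, and 78 (without PZH + AOM/DSS mouse 15) to 495. Against AOM/DSS it had 1 called gene, 89 in the model of 20 mice and 808 without mouse 35, where the interaction had 476 in place of 2. Levels under about 0.5 FPKM, as for Nox4, rest on few fragments.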
